A study of Mus musculus with 12 samples.

Results

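The 10 genes described here, Gfap, Aqp4, Slc1a2, Slc1a3, Glul, Gja1, Gjb6, Aldh1l1, S100b and Sox9, are genes widely used to mark astrocytes. They were taken by name out of 21887 protein-coding genes with a span in the mm10 build. Each peak that overlapped a member's span by at least 1 base on the gene's strand was counted. A peak is a stretch of RNA that an antibody against 5-methylcytosine (m5C) enriched over the input RNA. The tissue was the hippocampus of female wild-type (WT) C57BL/6 mice. One group was 3 months old and labelled young, and the other was 18 months old and labelled natural aging. No allele, transgene or agent is named for either group. There were 3 peak lists per age, each made from 1 immunoprecipitated library and its own input. Nothing in the labels ties a sample to its own animal or pool, so p-values below reflect only how these samples spread, and that spread may be technical.

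Astrocytes are the glial cells that take up transmitter released at synapses, buffer potassium, supply neurons with metabolites and wrap blood vessels with their endfeet. In the hippocampus they clear glutamate through the transporters encoded by Slc1a2 and Slc1a3, and glutamine synthetase, encoded by Glul, turns it into glutamine. Connexins join them into a network, aquaporin-4 carries water at the endfeet, and the filament protein GFAP rises in reactive astrocytes and is a common marker of brain ageing. m5C is a methylated cytosine that occurs in transfer, ribosomal and messenger RNA. Enzymes of the NSUN family place most of it.

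Across whole lists, the 3-month lists held 8549 to 10392 peaks and the 18-month lists 14008 to 15189, a ratio of 1.51 between the means. Read depth is unknown for every list, and so is the precision of a peak. The markers were measured in RNA from whole tissue, where fewer cells of a type and less RNA per cell cannot be told apart, and a peak depends on the amount of a transcript as well as on its modification. Transcript levels were not analysed here. The part of list length and of transcript level in the results below was not tested, except where lists of equal length are named.

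Of the 10 markers, 9 had a peak in at least 1 list, as did 42.9% of all protein-coding genes in the table. Glul was the exception. In the 3-month lists 1, 2 and 3, a peak was present in 6, 4 and 7 markers. The 18-month lists 1, 2 and 3 had one in 9, 9 and 8 markers. All 18-month lists thus lay above all 3-month lists, with means of 8.67 ± 0.577 and 5.67 ± 1.53 markers (SD, n = 3 each; exact permutation p = 0.1, two-sided, adjusted p = 0.133 over 4 comparisons), a ratio of 1.53. Over all protein-coding genes the ages were apart in the same direction, with 5190, 4814 and 5352 genes marked at 3 months and 6675, 6235 and 6344 at 18 months, a ratio of 1.25 (exact permutation p = 0.1). With 3 lists against 3 the smallest possible p is 0.1, so none of these comparisons could reach 0.05. With each list cut to the length of the shortest, the 8549 peaks of highest score, the means were 7.0 ± 1.0 and 5.67 ± 1.53 markers, and the ages overlapped (exact permutation p = 0.5).

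The number of peaks in the markers separated the ages as well. It was 9, 6 and 10 in the 3-month lists and 19, 18 and 15 in the 18-month lists. The means were 8.33 ± 2.08 and 17.3 ± 2.08 peaks (SD, n = 3 each), a ratio of 2.08 (exact permutation p = 0.1, adjusted p = 0.133). As a share of all peaks of a list, they made up 0.0858% ± 0.0138 at 3 months and 0.12% ± 0.0127 at 18 months (exact permutation p = 0.1, adjusted p = 0.133). With lists of equal length the markers still held more peaks at 18 months, at 12 ± 1.0 against 8.0 ± 2.0 (exact permutation p = 0.1). The bases they covered did not separate the ages, at 14820, 6217 and 13914 in the 3-month lists and 16973, 16014 and 13199 in the 18-month lists (exact permutation p = 0.3). The mean difference was 3745 bases, 1028 without 3-month list 2, and 322 with lists of equal length.

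**Figure D1:**
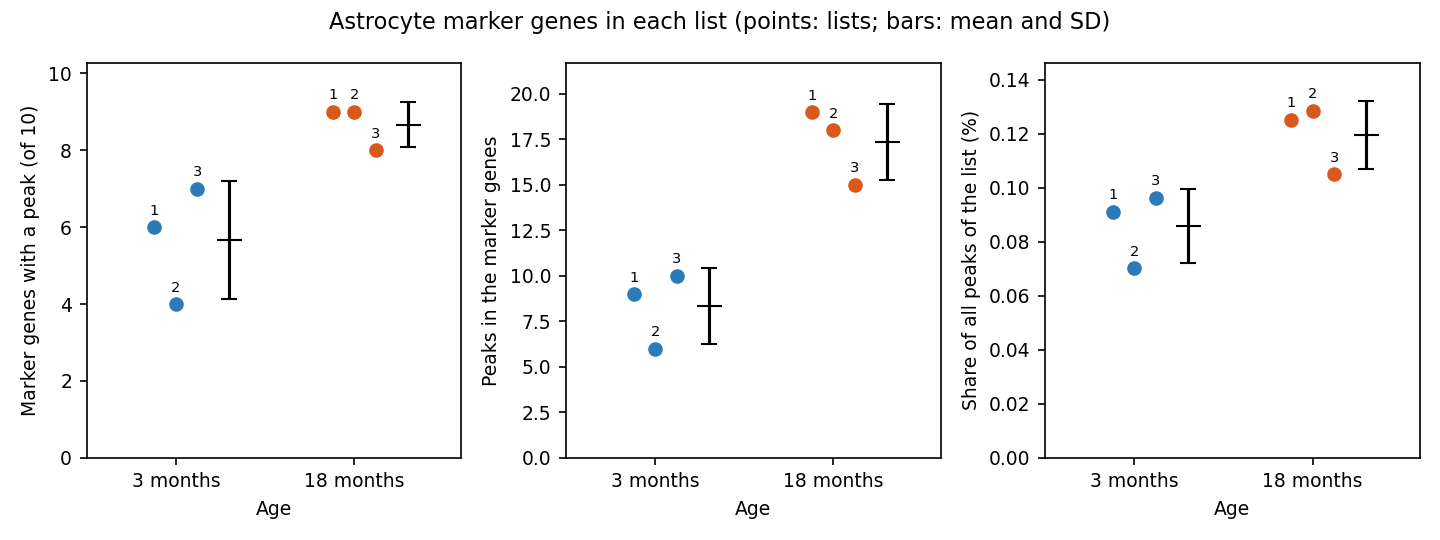
Number of the 10 markers with a peak, number of peaks in them, and their share of all peaks of the list in percent (y axes) by age (x axes). Numbered points are lists, black bars the mean and SD of 3 lists; in each panel the 18-month lists sit above the 3-month lists, as with 15 to 19 against 6 to 10 peaks in the middle panel.

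The glutamate transporters held 34 of the 77 peaks in the markers, in 9 of 25 regions. Their spans of 132.5 and 76.7 kb are the longest among the markers, where the others run from 5.55 to 48.4 kb. Peaks were not counted per kb. A region is the union of peaks that touched or overlapped on 1 strand across the 6 lists. Slc1a3 encodes GLAST, and its span covers 76.7 kb of chromosome 15 on the minus strand. It had 2, 3 and 3 peaks in the 3-month lists and 5, 3 and 4 in the 18-month lists, so it was marked in every list and the ages touched at 3 peaks. Of its 5 regions, the one from 8707708 to 8708839, with its midpoint 2.53 kb from the 5′ end of the span, had a peak in all 6 lists. All 6 peaks there ended at the same base on their 5′ side, at 8708839, and differed on the other side, with widths from 894 to 1132 bases. Their scores, which are the authors' own values, were 487, 292 and 222 in the 3-month lists and 1057, 102 and 1003 in the 18-month lists. Scores were ranked only within a list, but an alternative run below applied the same minimum score to every list. Whether score values are comparable between lists was not tested.

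At the 3′ end of Slc1a3 a wide region from 8634124 to 8636339 ended exactly where the span ends. It was present in 1 list at 3 months, list 3, and in all 3 lists at 18 months. The authors' score there was 1101 in 3-month list 3 and 2983, 1906 and 3100 in 18-month lists 1, 2 and 3. The last value is one that 615 peaks of that list share. Each of these 4 peaks ranked above 90% of the peaks in its own list. The region nearest to the 5′ end, from 8710339 to 8710771, was absent from 3-month list 1 only. A further region from 8650175 to 8651506 was present in 2 lists of each age. An isolated peak of 293 bases lay in 18-month list 1 alone.

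Slc1a2 encodes GLT-1, the main glutamate transporter of the forebrain, in a span of 132.5 kb on chromosome 2, plus strand. The lists held 2, 0 and 2 peaks at 3 months and 3, 4 and 3 at 18 months. No 3-month list reached the count of any 18-month list, a pattern found in 11.9% of the genes with a peak. At equal list length the counts were 2, 0 and 2 against 2, 2 and 3, and the ages overlapped. Its most frequent region, from 102777427 to 102778106, lay at 90.2% of the span and was found in 5 lists, all but 3-month list 2. All 5 peaks started at the same base, and they were 680 bases wide in both 3-month lists and 508 to 559 bases wide in the 18-month lists. Scores were 356 and 97.7 in 3-month lists 1 and 3, and 1380, 1318 and 2907 in 18-month lists 1, 2 and 3.

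The other regions of Slc1a2 were less frequent at 3 months. A region of 643 bases near the 5′ end, from 102658659 to 102659301, occurred in 3-month list 1 and in all 18-month lists, with the same ends each time. A region of 135 bases, from 102766933 to 102767067, occurred in 3-month list 3 and in all 18-month lists, also with identical ends. Since 3-month list 2 had no peak in Slc1a2, each of these regions rested on a different 3-month list. The shortest peak of all markers, 46 bases in 18-month list 2, began exactly at a start site that RefSeq gives inside the gene, 48.2 kb into the span.

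Glul, which encodes glutamine synthetase, had 0 peaks in each of the 6 lists over its 9.8 kb span on chromosome 1. The lists begin at an authors' score of 50, so an enrichment below that score would not be seen.

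The intermediate filament gene Gfap had 2, 1 and 1 peaks in the 3-month lists and 2, 2 and 2 in the 18-month lists, over a span of 9.87 kb on chromosome 11, minus strand. It was marked in every list, with overlapping counts. The place of the peaks was less constant than their number. A region from 102896666 to 102897200, which reaches the 5′ edge of the span, was shared by 3-month lists 1 and 3 and by all 18-month lists. Its scores were 60.6 and 255 at 3 months, the first above only 12.1% of the peaks of its list, and 1638, 651 and 1331 at 18 months. In 3-month list 2 the only Gfap peak was a stretch of 96 bases, 1.68 kb from the 5′ end, where no other list had one. At 18 months the second peak lay 4.06 kb from the 5′ end in lists 1 and 3, with the same ends from 102893035 to 102893255, and 2.74 kb from it in list 2. The 3′ end of Gfap carried a peak in 3-month list 1 alone, 1386 bases wide.

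S100b encodes a calcium-binding protein that astrocytes also secrete, in a span of 7.48 kb on chromosome 10, plus strand. It had 0, 0 and 1 peaks at 3 months and 1, 2 and 1 at 18 months. The ages touched at 1 peak, but the place differed. The region from 76257027 to 76257172, at 43.6% of the span, was present with identical ends in the 3 lists at 18 months and in none at 3 months. The peak in 3-month list 3 lay near the 3′ end instead, from 76259928 to 76260814, with a score of 65.98. Without that list, S100b would count as marked at 18 months only, as would 7.04% of all genes with a peak.

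Printed below are 30 bases from the start sites where a peak reached the 5′ edge of a RefSeq transcript of a marker, because they show what lay under the antibody there. They are DNA letters of the gene's strand, 5′ to 3′, from RefSeq (GRCm38.p6), with cytosines in capitals as the bases that can carry m5C. The peaks do not show which cytosine, if any, was modified.
Gfap, chr11:102897171-102897200, minus strand: CCaggaagtCaggggCagatttagtCCaaC
S100b, chr10:76253836-76253865, plus strand: gtggaCtgCgCCaagCCCaCaCCCagttCt
Slc1a2, start site inside the span, chr2:102706438-102706467, plus strand: CagaaCttggaagCCagtgCaCttCtaCag
A peak covered all 30 Gfap bases in 4 lists, 3-month lists 1 and 3 and 18-month lists 2 and 3. In 18-month list 1 the peak stopped 56 bases inside the span. The S100b and Slc1a2 bases were covered in 18-month list 2 only, with scores of 59.1 and 59.0. Of the 30 bases, 7 were cytosines in Gfap, 12 in S100b and 8 in Slc1a2. The median over 32851 start sites in the table was 8, and 13% of them had at least 12.

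**Figure D2:**
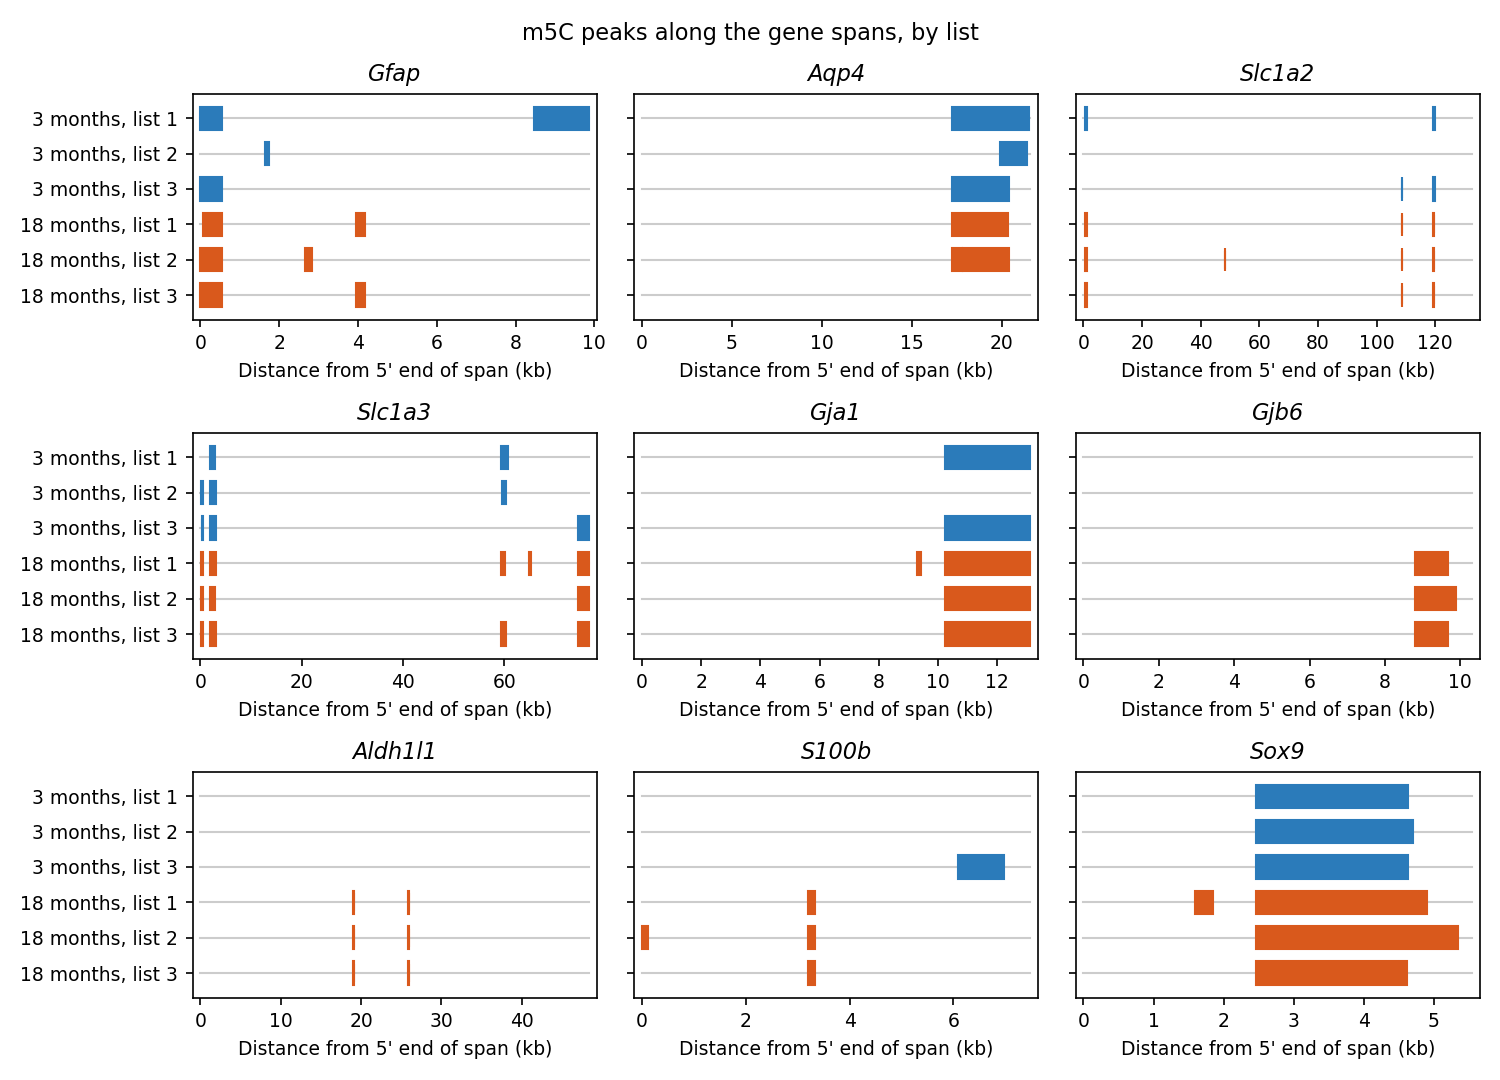
Position of every peak in the 9 markers that had one, as distance from the 5′ end of the gene span in kb (x axes), with 1 row per list (blue, 3 months; orange, 18 months); very short peaks are drawn at a minimum line width. Gja1, Sox9 and Aqp4 have wide peaks in the 3′ part of the span, while the peaks of Aldh1l1 lie well inside it and are only in the 18-month rows.

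Connexins form the gap junctions that couple astrocytes. Gja1, which encodes connexin 43, had 1, 0 and 1 peaks at 3 months and 2, 1 and 1 at 18 months, so the counts overlapped. The region from 56387534 to 56390419 on chromosome 10 (plus strand), 2886 bases wide, ran to the 3′ end of the span. It was found in 5 lists, all but 3-month list 2, with the same start and end in each. The authors' score there was 87.9 and 164 in 3-month lists 1 and 3, and 701, 224 and 1053 in 18-month lists 1, 2 and 3. A peak of 135 bases in 18-month list 1 was its only other one.

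Gjb6, which encodes connexin 30, had 0 peaks in the 3 lists at 3 months and 1 in each at 18 months. The region lay on chromosome 14, minus strand, from 57123737 to 57124816, at 90.5% of the span. All peaks shared their 5′ side at 57124816 and were 872, 1080 and 883 bases wide. Their scores of 102, 96.8 and 98.7 ranked above 35.2% to 37.3% of the peaks of their lists. At equal list length none of the 3 peaks was left.

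Aldh1l1 encodes a folate enzyme that is a broad astrocyte marker, in a span of 48.4 kb on chromosome 6, plus strand. It had 0, 0 and 0 peaks at 3 months and 2, 2 and 2 at 18 months. Both of its regions had identical ends in the 3 lists at 18 months. The first ran from 90569793 to 90569940, 148 bases, with scores of 259.9, 364 and 134. The second ran from 90576628 to 90576778, 151 bases, with scores of 84.7, 105 and 60.1. At equal list length the gene kept 1 peak in each 18-month list and still had none at 3 months. Among peaks at or above the median score of their list, it had one in 2 lists at 18 months.

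Aldh1l1 and Gjb6 were the 2 markers with a peak in 3 of 3 lists at 18 months and 0 of 3 at 3 months, among the 9 with a peak. Over all 9388 genes with a peak the share was 4.19%. No marker showed the opposite pattern, which 0.82% of those genes had. With lists of equal length 1 marker was left, Aldh1l1. Over all genes with a peak at that length, 1.34% were marked in 3 of 3 lists at 18 months and 0 of 3 at 3 months and 2.70% the other way round, so the balance of the 2 patterns over all genes turned. With peaks scoring at least 100 the marker was again Aldh1l1 alone, beside 5.50% of all genes with such a peak. With peaks at or above their list's median score there was none, beside 5.23%. Peaks in more 18-month than 3-month lists were seen in 5 markers (42.9% of all genes with a peak), in as many lists in 3 markers, and in fewer in 1 marker, Aqp4 (17.1% of all genes with a peak).

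Aqp4 encodes the water channel of the astrocyte endfoot. Its span on chromosome 18, minus strand, held 1, 1 and 1 peaks at 3 months and 1, 2 and 0 at 18 months. The ages overlapped, and 18-month list 3 was the only list with no Aqp4 peak. All of them fell into 1 region toward the 3′ end, from 15389500 to 15393729. No pair of peaks had the same ends, and 3 of the 5 lists reached the same 5′ side at 15393729 with their single peak. In 18-month list 2 the stretch was split into a peak of 2560 bases and one of 514 bases. Scores were 203, 64.8 and 206 in the 3-month lists, 98.8 in 18-month list 1, and 71.6 and 345 in 18-month list 2.

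Sox9, a transcription factor of glial fate that astrocytes keep in adult tissue, had a region that was present in all 6 lists. Its span of 5.55 kb on chromosome 11, plus strand, held 1, 1 and 1 peaks at 3 months and 2, 1 and 1 at 18 months. All lists shared a peak that began at 112784672. It was 2175, 2239 and 2168 bases wide in the 3-month lists and 2440, 2891 and 2162 in the 18-month lists, so the widths overlapped. The scores of 669.55, 533 and 1224 at 3 months and 1597, 1443 and 1812 at 18 months ranked above 83.6% to 92.8% of the peaks of their lists. The extra peak in 18-month list 1, from 112783809 to 112784062, was 254 bases wide.

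**Figure D3:**
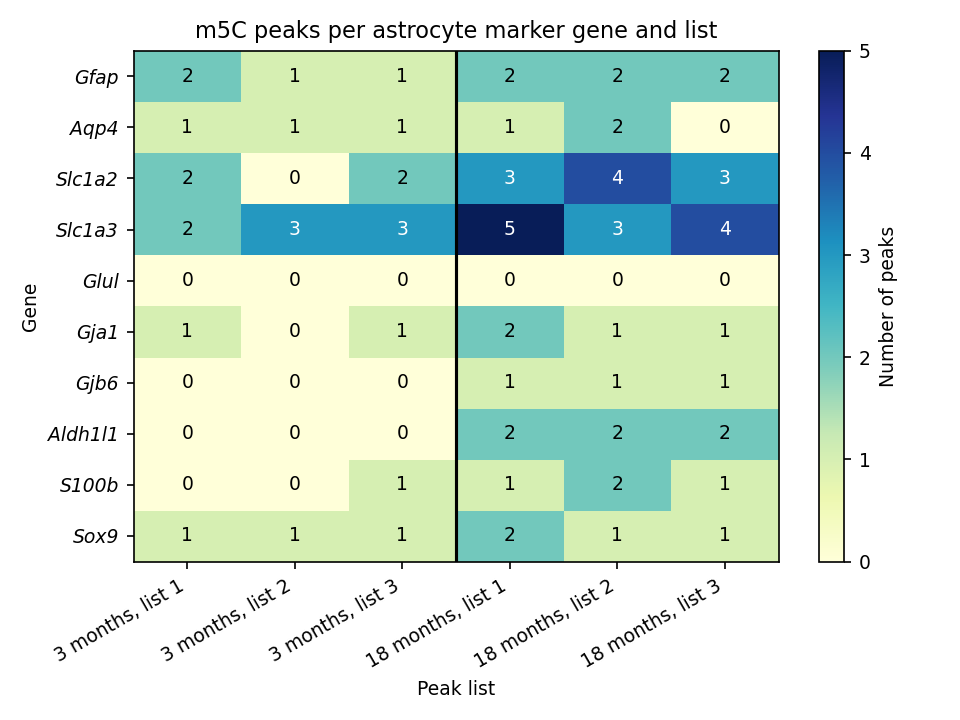
Number of m5C peaks (colour and printed number) in each marker (rows) and list (columns), with a line between the ages. Slc1a3 reaches 5 peaks in 18-month list 1, Glul is at 0 throughout, and Aldh1l1 and Gjb6 are at 0 in the 3-month columns only.

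Taken by region, 11 of the 25 were found at both ages, 11 only in 18-month lists and 3 only in 3-month lists. Over all 24501 regions, 38.9% were found only in 18-month lists and 13.5% only in 3-month lists. Regions present in 3 of 3 lists at 18 months and 0 of 3 at 3 months numbered 4, both of Aldh1l1, that of Gjb6 and the middle region of S100b, beside 5.13% of all regions. No marker region was present in all 3-month lists and no 18-month list, as were 0.637% of all regions. The count of 4 became 1 with lists of equal length and with scores of at least 100, and 0 with peaks at or above their list's median score. Without 3-month list 3 it became 6, since a region each of Slc1a2 and Slc1a3 then joined. The share over all regions is not given for these settings, so the changed counts have no background beside them.

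Regions in all 6 lists numbered 2, those of Slc1a3 and Sox9, beside 17.6% of all regions. A peak in 1 list only made up 9 of the 25 regions, beside 34.7% of all. Of these 9, 3 were in 18-month list 1, 3 in 18-month list 2 and none in 18-month list 3; the other 3 were in 3-month lists. Among the 16 regions found in several lists, 7 had the same start and end in every list that held them.

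Marker regions were found all along the spans. The midpoint lay in the first 10% of the span in 5 of 25 regions and in the last 10% in 4. Over 23865 regions that lie in the span of 1 gene the shares were 11.2% and 23.3%. In 3 marker regions a peak ended exactly at the 3′ end of the span, in Gfap, Slc1a3 and Gja1, beside 5.28% of all. The median region width was 433 bases in the markers and 211 bases over all, and 8 of 25 marker regions were at least 1000 bases wide, beside 15.9% of all. Exons and untranslated regions were not used here, so these places refer to the gene span.

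Within their own lists, 49 of the 77 peaks scored above the list's median and 13 above the 90th percentile. The best-placed marker peak was that of Sox9 in each 3-month list and that of Slc1a3 at the 3′ end in each 18-month list. Percentiles depend on how many peaks a list holds, so whether scores changed with age cannot be read from them.

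**Figure D4:**
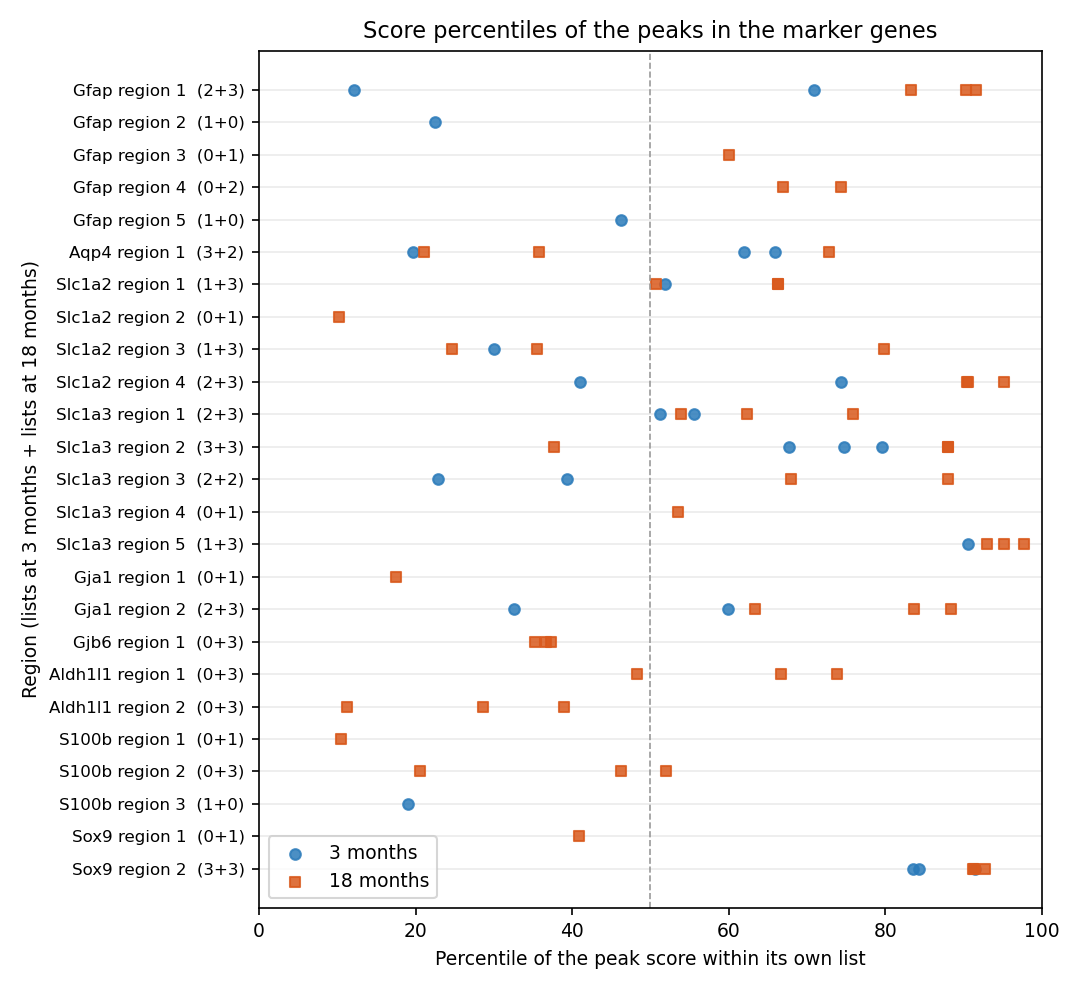
Percentile of each peak's score within its own list (x axis, higher is a higher score; dashed line, the list's median) for the 25 regions (y axis, with the number of lists at each age; regions of a gene are numbered from its 5′ end). The common regions of Sox9 and the 3′ region of Slc1a3 lie at 83.6% or higher, and the Gjb6 peaks between 35.2% and 37.3%.

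Other astrocyte genes were described from lists chosen by function, and their counts per list stand beside the ratio of 1.25 over all protein-coding genes given above. Of all protein-coding genes in the table, 42.9% had a peak in at least 1 list. Of all genes with a peak, 31.8% had one in all 6 lists. Some genes, among them Kcnj10, Vim and Stat3, stand in more than 1 of these gene lists, so the results of the gene lists are not independent. Of 44 further astrocyte-enriched genes, 34 had a peak. The number per list was 17, 13 and 20 at 3 months and 23, 22 and 25 at 18 months (exact permutation p = 0.1, adjusted p = 0.2 over 12 gene lists, the smallest that was reached). Peaks in all 6 lists were found in 8 of them, among them the secreted matrix protein Sparcl1 and the bicarbonate transporter Slc4a4. Slc4a4 had 6, 2 and 6 peaks at 3 months and 10, 8 and 9 at 18 months. Of all genes with a peak, 11.9% likewise had more in every 18-month list than in every 3-month list. In 2 of the 34, peaks were in 3 of 3 lists at 18 months and 0 of 3 at 3 months. These were Ttyh1, an anion channel family member, and Tril, a co-receptor of innate immune signalling. That pattern was seen in 4.19% of all genes with a peak.

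Around glutamate, 7 of 10 further genes had a peak, in 6, 4 and 4 genes at 3 months and 7, 6 and 7 at 18 months (exact permutation p = 0.2, adjusted p = 0.3). The cystine/glutamate exchanger Slc7a11 and the metabotropic receptors Grm3 and Grm5 had one in all 6 lists. Glud1, which encodes glutamate dehydrogenase, had one in 0 lists at 3 months and 2 at 18 months. In the list of gap junction, potassium channel and endfoot genes, 9 of 10 had a peak, in 4, 2 and 4 genes at 3 months and 5, 5 and 6 at 18 months (exact permutation p = 0.1, adjusted p = 0.2). Dmd, which encodes dystrophin of the complex that anchors aquaporin-4, was marked in all 6 lists, as were 31.8% of all genes with a peak. It had 3, 5 and 5 peaks at 3 months and 12, 10 and 10 at 18 months. More peaks in every 18-month list than in every 3-month list were found in 11.9% of all genes with a peak. Kcnj10, the potassium channel of astrocytes, had a peak in 1 list of each age.

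Among the astrocyte lists, only that of intermediate filament and linker genes had a lower mean number of marked genes at 18 months. The mean number of peaks in its genes was 8.33 at 3 months and 8.67 at 18 months. A peak was present in 6, 3 and 6 of 7 genes at 3 months and in 4, 4 and 4 at 18 months (exact permutation p = 0.4, adjusted p = 0.436), so the ages overlapped. Vim, Nes and Plec, for vimentin, nestin and the linker plectin, were marked in every list. Des and Krt18 had a peak in 2 lists at 3 months and 0 at 18 months.

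Genes known from reactive astrocytes had a peak in 16 of 37, close to the 42.9% of all protein-coding genes in the table. The number per list was 5, 4 and 6 at 3 months and 7, 7 and 9 at 18 months (exact permutation p = 0.1, adjusted p = 0.2). Cp, for the copper protein ceruloplasmin, and Fkbp5, for a chaperone of the glucocorticoid receptor, were marked in 3 of 3 lists at 18 months and 0 of 3 at 3 months. That pattern had a share of 4.19% over all genes with a peak. More lists at 18 months than at 3 months held a peak for 9 of the 16, fewer did for 6, and the number was equal for 1. The shares over all genes with a peak were 42.9%, 17.1% and 40.0%, in that order. The 6 were the complement gene C3, in 3 lists at 3 months and 1 at 18 months, S100a10 in 2 and 1, the heat shock protein gene Hspb1 in 2 and 0, and Lcn2, Fbln5 and Amigo2 in 1 and 0. Of the transcription factors of astrocyte fate other than Sox9, 14 of 16 had a peak, in 9, 9 and 9 genes at 3 months and 12, 11 and 12 at 18 months (exact permutation p = 0.1, adjusted p = 0.2). Nfib, Nfix and Zbtb20 were among the 7 marked in all lists, as Sox9 was. Hes1, a target of Notch signalling, was marked in 3 of 3 lists at 18 months and 0 of 3 at 3 months, beside the same 4.19%.

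Each of the 9 markers with a peak shared its pattern over the 6 lists with genes that are not among the markers. That of Gfap, Slc1a3 and Sox9, a peak in every list, was also that of 2981 such genes, and 31.8% of all genes with a peak had it. The pattern of Aldh1l1 and Gjb6 was also that of 391. That of Slc1a2 and Gja1, all lists but 3-month list 2, was shared with 430, among them the astrocyte-enriched Apoe and Clu, which encode lipid-carrying proteins. S100b shared its pattern with 247 genes, including Cst3, Mt3 and Stat3, and Aqp4 shared its pattern with 73 genes, none of them in the astrocyte lists.

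**Figure D5:**
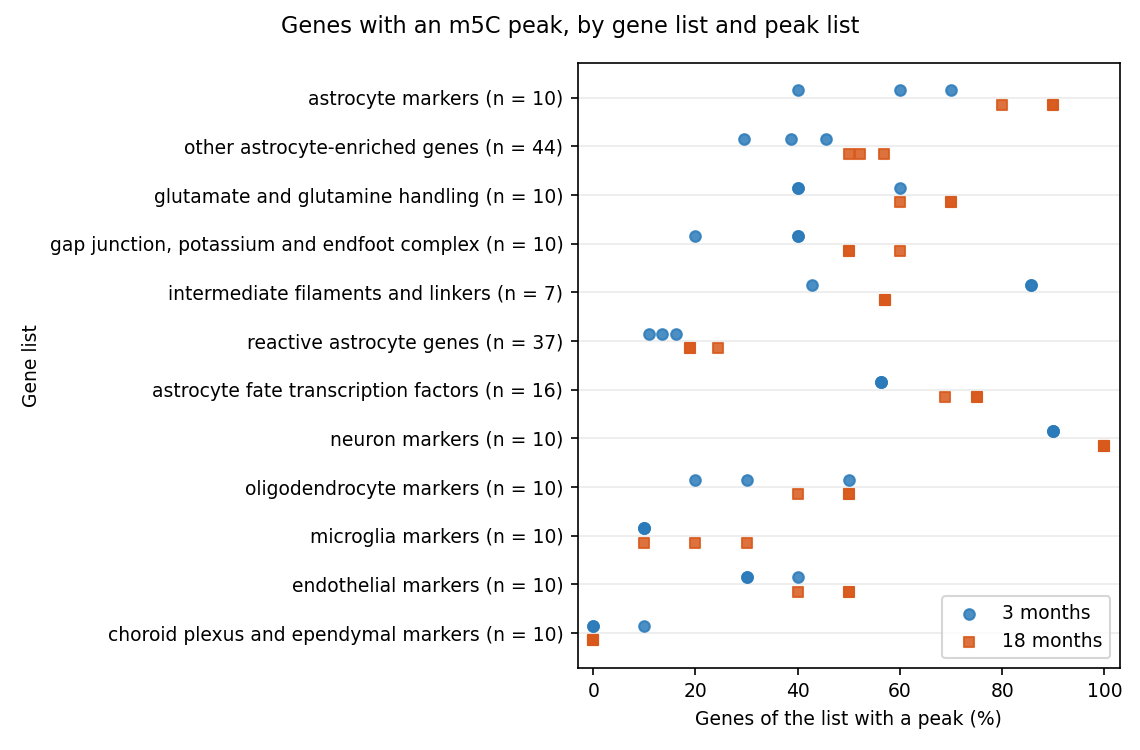
Share of the genes of each gene list (y axis) that had a peak, in percent (x axis), with 1 point per peak list (equal values overlap). The 10 markers run from 40% to 70% at 3 months and from 80% to 90% at 18 months.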

How the data were processed

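The authors deposited 6 peak lists, 3 per age, each of 1 immunoprecipitated library against its input. The score is the authors' own value per peak, with a lowest value of 50, on a scale that no source used here explains. The names cutadapt 1.9.3, HISAT2 2.0.4 and mm10 stand in the submitters' processing notes. Peaks are named after MACS, a peak caller, without its version or settings.

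Gene spans came from RefSeq's GRCm38.p6 table, the mm10 build. Strand came from RefSeq start sites for 17492 genes (99.7% of unambiguous peaks lay on it), otherwise from the majority of peaks, as for Sox9 and Aqp4. No other protein-coding span overlapped a member. Coordinates count from 1. Start-site sequences matched 8 of 10 members.

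Groups followed the age in the labels. Values per list were compared by two-sided exact permutation tests with Benjamini-Hochberg adjustment, in Python 3.11.15 with pandas 2.3.3; counting was tested on simulated peaks. Alternatives were peaks at or above their list's median score, equal list length, a score of at least 100, either strand, 50% overlap, each list left out, and a replicate block. Members and gene lists were chosen with earlier results of these data known. Genes named from the further lists were those marked in 3 of 3 lists of 1 age and 0 of 3 of the other, and the 3 with the highest mean of the best score percentile among those marked in all 6. Some genes under this rule are not reported here. Glud1, Kcnj10, Des, Krt18, C3, S100a10, Hspb1, Lcn2, Fbln5, Amigo2 and the genes named for a shared pattern were chosen after their values were seen.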

Additional observations from a re-analysis of the deposited data

How the results depend on the processing

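By the means, the markers held more peaks, a larger share of the list and more marked genes at 18 months under every alternative run. Either strand or 50% overlap left all values of the markers as they were. The ages did not stay apart in every setting. With peaks at or above their list's median score, 6.33 ± 1.53 genes were marked at 18 months and 3.67 ± 1.53 at 3 months (exact permutation p = 0.2). Restricted counts were the ones that moved: markers with a peak at 18 months only went from 2 to 0 and their regions from 4 to 0 with peaks at or above their list's median score, to 1 and 1 at equal list length, and to 1 and 1 with scores of at least 100. Over all genes with a peak that pattern had a share of 4.19%, which was 5.23% with peaks at or above their list's median score, 5.50% with scores of at least 100, 5.45% to 7.04% with 1 list left out, and 1.34% at equal list length, where the opposite pattern, at 2.70%, was the more frequent one. Leaving out 1 list gave 2 to 3 such genes, 4 to 6 such regions, differences of 2.17 to 3.67 marked genes, 7.83 to 10.2 peaks, 0.0259 to 0.041 percentage points of the list, and 1028 to 5330 bases. For the region counts, no share over all regions is given under the alternatives. At equal list length the differences were 1.33 marked genes (exact permutation p = 0.5) and 4 peaks (exact permutation p = 0.1). A replicate block on the list numbers gave the same differences with exact sign-flip permutation p = 0.25 for the 3 marked genes, the 9 peaks and the share, and p = 0.5 for the 3745 bases, where 0.25 is the smallest p that 3 pairs allow; the lists share only a number (correlations of deviations between same-numbered lists 0.0166 to 0.0211, each list's highest). The unknown depth limits every absence of a peak, including that of Glul.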

Other observations

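Markers of the other cell types of the tissue were listed beside those of astrocytes, with 10 genes each. All 10 neuron markers were marked somewhere and the same 9 in each of the 6 lists, which gave 9, 9 and 9 genes at 3 months and 10, 10 and 10 at 18 months (exact permutation p = 0.1). Their peaks numbered 26, 27 and 31 at 3 months and 40, 38 and 40 at 18 months. Among those marked in every list, Syt1, Nefl and Nefm had the highest score percentiles; Gad1 had one in 3 of 3 lists at 18 months and 0 of 3 at 3 months, a pattern of 4.19% of the genes with a peak. Of the oligodendrocyte markers 7 had a peak, in 5, 2 and 3 genes at 3 months and 5, 5 and 4 at 18 months (exact permutation p = 0.4), and Mag had one in every list. Of the endothelial markers 7 had a peak, in 3, 4 and 3 genes at 3 months and 5, 5 and 4 at 18 months (exact permutation p = 0.2). Flt1 had one in every list. Pecam1 had one in 3 of 3 lists at 18 months and 0 of 3 at 3 months, as Gad1 did. The microglia list had 4 marked genes, in 1, 1 and 1 at 3 months and 1, 3 and 2 at 18 months (exact permutation p = 0.4), with Cx3cr1 in every list. Of the choroid plexus and ependymal markers 1 had a peak, in 3-month list 3. Whether these lists differ from the astrocyte markers was not tested.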
